A study of Homo sapiens with 42 samples.

Results

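The comparison set the late response of Hep3B cells to cytokines against the early one. Hep3B is a human hepatoma line, kept here in CM, a medium rich in pro-inflammatory cytokines per the labels, or in NCM, the control medium. CM and NCM cultures were made in pairs from 1 batch of trypsinized cells, and each pair gave 1 CM array and 1 NCM array of total RNA. The late pairs were the 9 taken after 3 h, 6 h and 16 h in medium, and the early pairs the 9 taken after 15 min, 30 min and 1 h, in both cases with 3 independent experiments at each time. They hold 36 of the 42 arrays of the series (18 late and 18 early) and 18 of its 21 pairs, and the other 3 pairs are T0. All groups were the same cell line, and the labels name neither the cytokines of CM nor their amounts. A pair difference is CM minus NCM on the log2 scale, so 1 is a doubling of the signal in CM. The value compared, late minus early, is the mean of the 9 late pair differences minus the mean of the 9 early ones, for each of 13824 probes. Of these probes 7336 name 1 gene, 576 name several and 5912 name none, and a gene stands for its brightest probe where no number is printed.

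Liver cells answer inflammatory cytokines in waves. Interleukin-1 and tumour necrosis factor release the transcription factor NF-kappaB from its inhibitor, and interleukin-6 activates the transcription factor STAT3; a first wave of genes for transcription factors, chemokines and feedback inhibitors follows without new protein synthesis. A later wave holds the acute phase proteins that the liver secretes into plasma, such as orosomucoid, fibrinogen, haptoglobin and complement factors, and genes of antigen processing.

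No probe separated the late from the early response at the threshold. limma called 0 of 13824 probes (0%) at an adjusted p under 0.05. An unadjusted p under 0.05 was held by 1036 probes, 484 of them higher late (3.5%) and 552 lower late (3.99%). Chance alone gives 691.2 on average, here and for each later count of this kind over 13824 probes. The probes are not independent, and the distance of a count from 691.2 was not tested. The smallest adjusted p, 0.121, belonged to IL32. The overall size of the pair differences differed between the periods by less than the spread between pairs. Their root mean square over all probes was 0.479 ± 0.0671 in the late pairs and 0.504 ± 0.121 in the early pairs (SD, n = 9 each), and the difference of -0.0247 had p = 0.5475 in a two-sided exact permutation test within experiments. The 3 pairs of T0, taken at the start, lay between 0.380 and 0.773 on the same measure. Late minus early values are therefore given below for named genes as values with their error, and those without a stated call did not pass.

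The late mean taken alone did pass for a few genes. In CM against NCM over the 9 late pairs, 6 probes passed (0.0434%), all 6 higher, while 826 had an unadjusted p under 0.05. For the early mean the count was 0 (0%), while 967 had an unadjusted p under 0.05. A late mean past the threshold beside an early mean that is not does not show that they differ, and for each of these 6 probes the difference itself did not pass. With 6 late pairs in place of 9, limma called 0 probes without experiment 1, 2 or 3 and 0 without the 6 h pairs. It called 6 probes without the 3 h pairs, not all of them the same ones, and 3 without the 16 h pairs. The late means of the 6 probes called over the 9 late pairs were above 0 under every alternative that tested single late probes. IL32 kept its late call in 14 of these 20 alternatives.

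IL32 encodes interleukin-32, a cytokine that acts on tumour necrosis factor and chemokine production. It rose in the late pairs (mean 1.02 ± 0.32 late and -0.09 ± 0.45 early, SD, n = 9 pairs each, limma adjusted p = 0.00304 for the late mean). The late differences were 0.94, 1.05 and 0.73 at 3 h, 1.22, 1.33 and 1.18 at 6 h, and 1.25, 1.20 and 0.31 at 16 h in experiments 1, 2 and 3. The 9 early differences had a lowest value of -0.83, a median of 0.09 and a highest value of 0.54. All late pairs were above 0 and 5 of the 9 early pairs were, and the groups overlapped through the pair of experiment 3 at 16 h. The late minus early value of IL32 was 1.11 (SE 0.19, limma adjusted p = 0.121), a 2.17-fold larger CM to NCM ratio late, with 1.42, 1.25 and 0.68 in the 3 experiments. Its late mean was 0.94 to 1.16 with 1 experiment left out. CFB encodes complement factor B, which builds the convertase of the alternative pathway, and it also rose in the late mean (0.72 ± 0.80 late and -0.03 ± 0.19 early, SD, n = 9 pairs each, limma adjusted p = 0.0418). Its differences were 0.77, 1.80 and 1.84 at 16 h and 0.68, 0.53 and 1.29 at 6 h, but -0.17, 0.02 and -0.28 at 3 h, so the 3 h pairs lay among the early ones. The T0 pairs had 0.01, 0.34 and 0.88, a mean of 0.41. CFB kept the late call in 7 of 20 alternatives: the call was lost, for instance, with the experiment number as a block (adjusted p = 0.0527), with 1 mean per period (0.352), on the deposited scale (0.825), after median centring (0.543) and after neighbour centring (0.0736), and without 16 h its late mean was 0.34. Its late minus early value was 0.75 (SE 0.18), and the other CFB probes had 0.13 and 0.20. NFKBIA encodes the NF-kappaB inhibitor IkappaB-alpha, itself an NF-kappaB target, and its time order was the opposite one. It averaged 0.27 ± 0.41 late and 0.85 ± 0.72 early (SD, n = 9 pairs each). Its late differences were 0.76, 1.05 and 0.27 at 3 h, 0.09, -0.07 and 0.30 at 6 h and -0.03, -0.25 and 0.33 at 16 h. Its early differences were 0.51, 0.35 and -0.15 at 15 min, 1.16, 0.15 and 1.95 at 30 min and 1.59, 1.49 and 0.59 at 1 h, after a mean of -0.27 at T0. The means were highest at 1 h (1.23) and 30 min (1.09), followed by 3 h (0.69), while single pairs of these times overlapped. Late minus early was -0.58 (SE 0.22, unadjusted p = 0.0148, limma adjusted p = 0.608), with -0.81, -0.42 and -0.50 in the 3 experiments, and the groups overlapped.

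Stretches around the start sites of these 3 genes are printed below. Their late minus early values did not pass the threshold, and a link between motifs and values was not tested. They are RefSeq promoter sequences of GRCh38.p14, from 250 bases before to 50 bases after the start, 5′ to 3′ on the gene's strand, with motif matches in capitals. IL32 lies at chr16:3065153-3065452 (plus strand), CFB at chr6:31945845-31946144 (plus strand) and NFKBIA at chr14:35404700-35404999 (minus strand).
IL32: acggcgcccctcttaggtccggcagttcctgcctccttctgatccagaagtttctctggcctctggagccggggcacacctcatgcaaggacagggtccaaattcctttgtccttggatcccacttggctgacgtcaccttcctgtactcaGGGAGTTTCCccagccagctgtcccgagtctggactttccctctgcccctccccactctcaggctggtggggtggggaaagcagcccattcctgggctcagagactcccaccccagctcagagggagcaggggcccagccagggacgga
CFB: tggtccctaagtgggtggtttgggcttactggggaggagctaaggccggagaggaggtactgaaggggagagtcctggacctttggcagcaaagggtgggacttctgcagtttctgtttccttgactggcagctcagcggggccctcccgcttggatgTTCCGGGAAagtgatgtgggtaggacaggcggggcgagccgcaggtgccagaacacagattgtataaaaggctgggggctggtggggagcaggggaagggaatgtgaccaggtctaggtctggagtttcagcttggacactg
NFKBIA: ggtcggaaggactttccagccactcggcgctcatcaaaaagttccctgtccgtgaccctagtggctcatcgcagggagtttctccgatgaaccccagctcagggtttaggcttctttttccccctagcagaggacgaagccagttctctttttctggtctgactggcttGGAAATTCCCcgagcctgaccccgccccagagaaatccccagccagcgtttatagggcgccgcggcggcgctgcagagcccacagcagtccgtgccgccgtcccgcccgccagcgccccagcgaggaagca
The motifs searched on both strands were GGG and TTTCC with 2 bases of any kind between them for NF-kappaB, TTCNNNGAA for STAT factors and TTNNGCAA for C/EBP factors, which are held by 1.91%, 7.66% and 10.5% of the 35116 promoters of the table. The capitals mark NF-kappaB matches that begin at -99 in IL32 and at -81 in NFKBIA, and a STAT match at -92 in CFB, counted from the start site. A second IL32 start in the table has none of the motifs, and neither has the stretch of ORM1, which was searched as well but is not printed. Of the 10 genes above 0 with the smallest p among those higher in all 3 experiments, IL32 and RGN hold an NF-kappaB match and ITIH4 and CFB a STAT match.

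**Figure D1:**
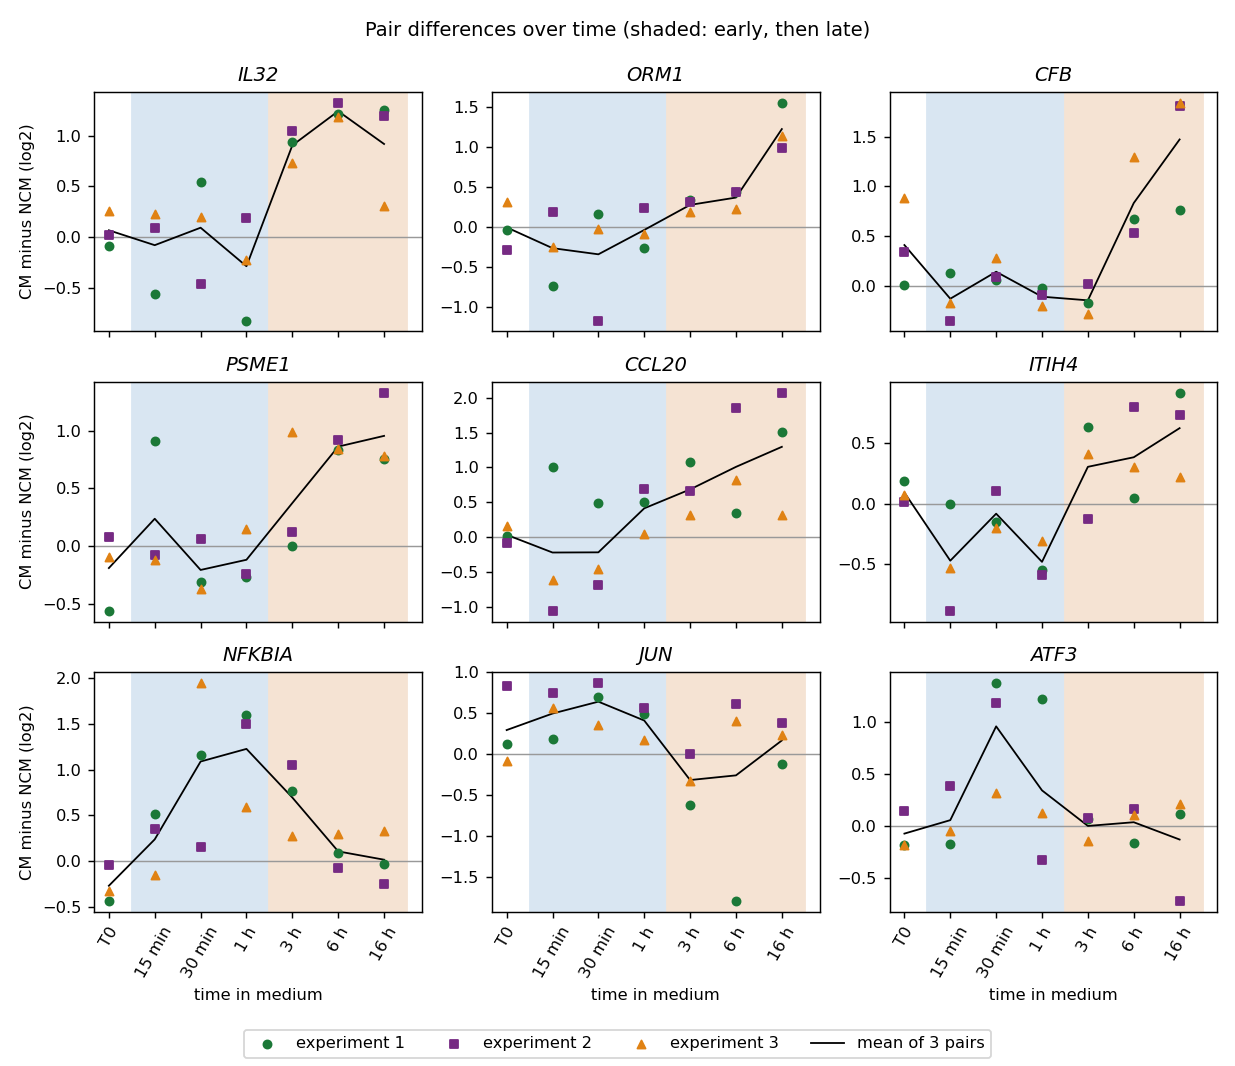
CM minus NCM differences (log2, vertical axes) of 9 genes over the time in medium, from T0 to 16 h (horizontal axes); points are single pairs by experiment, lines join the means of 3 pairs, and blue and orange bands mark early and late times. IL32 is above 0 in all 9 late pairs, CFB is high at 6 h and 16 h but not at 3 h, and NFKBIA peaks at 1 h with a mean of 1.23.

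Acute phase genes of the liver lay higher late than early in most cases, none of them past the threshold. Of the acute phase proteins known to rise, 17 of 24 measured were above 0, where 51.6% of the 5631 genes were, and 9 were higher in all 3 experiments, where 13.7% of all genes were. The median was 0.23 against 0.01 over all genes, with 0.12 in the late and -0.05 in the early means. Its medians in experiments 1, 2 and 3 were 0.06, 0.34 and 0.15. Of its members 7 were higher and 1 lower at an unadjusted p under 0.05, where 3.2% and 3.25% of all genes were.

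ORM1 encodes orosomucoid, an acute phase plasma protein. Its pair differences ran from 0.19 over a median of 0.44 to 1.56 late, and from -1.16 over a median of -0.08 to 0.24 early. The 9 late pairs were all above 0, the highest of them the 3 at 16 h (1.56, 0.99 and 1.14), and the groups overlapped slightly. ORM1 had a late minus early value of 0.84 (SE 0.19, limma adjusted p = 0.453), with 1.05, 0.82 and 0.64 in the 3 experiments, and its other probes had 0.50 and 0.54. ORM2 is a near-identical copy, and probes 7313 and 1820, which name both AKNA and ORM2, had 0.90 and 0.87; the probes were not tested for telling the copies apart. ITIH4 encodes a heavy chain of the inter-alpha-trypsin inhibitor family. It had 0.43 ± 0.35 late and -0.34 ± 0.31 early (SD, n = 9 pairs each), with 8 of 9 late pairs and 1 of 9 early pairs above 0. Its late minus early value was 0.78 (SE 0.17, limma adjusted p = 0.453), with 0.76, 0.92 and 0.66 in the experiments, while its other probes disagreed in sign (0.47 and -0.33).

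The fibrinogen chains differed from each other. FGB, the beta chain, had 0.66 (SE 0.21), with 0.73, 0.50 and 0.73 in the 3 experiments and 8 of 9 late pairs above 0, but its other probe had 0.00. FGG, the gamma chain, had 0.58 (SE 0.27), with 0.59 and 0.57 on its other probes, although experiment 1 gave -0.19 on the brightest one, which had 0.28 without experiment 2. FGA, the alpha chain, had -0.06 (SE 0.18), with 0.21, 0.33 and -0.19 on its other probes. Haptoglobin, HP, which binds free hemoglobin, had 0.48 (SE 0.20), with means of 0.48 at 6 h and 0.54 at 16 h but -0.08 at 3 h, and 0.26 without experiment 2. ITIH3, a relative of ITIH4, had 0.51 (SE 0.22), with 0.14 and -0.02 on its other probes and 0.26 without experiment 2. PLA2G2A, a secreted phospholipase, was the lowest member at -0.40, with -1.04 in experiment 1 and -0.16 and -0.01 in the other two.

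Probes of 1 gene disagreed for several plasma proteins. CRP, the gene of C-reactive protein, had -0.20 on its brightest probe and 0.26 and 0.66 on the others. SERPINA1, alpha-1-antitrypsin, had -0.25 on its brightest probe, with -0.04, 0.35, 0.54 and 0.33 on the others. SERPINA3, alpha-1-antichymotrypsin, had 0.24, with 0.35, -0.03 and 0.40. LBP, the lipopolysaccharide-binding protein, had 0.08, with -0.05, 0.06 and 0.56, and HPX, hemopexin, had -0.28, with 0.06 and -0.11. Genes that fall in the acute phase showed no common direction: 12 of 23 measured were above 0 with a median of 0.01, and ALB, albumin, had 0.08 on its brightest probe while its 5 other probes ran from -0.57 to -0.07.

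Antigen processing was represented by a few high members rather than by the list. PSME1, a subunit of the PA28 activator that opens the proteasome, rose in the late mean (0.73 ± 0.42 late and -0.03 ± 0.39 early, SD, n = 9 pairs each, limma adjusted p = 0.0471 for the late mean). Its late differences ran from 0.00 to 1.33 with a median of 0.83, and its early ones from -0.37 to 0.91 with a median of -0.12. All late pairs were above 0, and the highest early value was the pair of experiment 1 at 15 min. Its late minus early value was 0.76 (SE 0.18), with 0.42, 0.87 and 0.98 in the experiments. PSME1 kept the late call in 7 of 20 alternatives: the call was lost, for instance, with the experiment number as a block (adjusted p = 0.0766), without T0 (0.0616), on the deposited scale (0.379), after median centring (0.131) and after neighbour centring (0.0736). Probe 640, which names both RNF31 and PSME2, the partner subunit of PA28, also passed in the late mean (0.67, limma adjusted p = 0.0490, called in 7 of 19 alternatives). Its late minus early value was 0.55, with 0.13 within the CM arrays and -0.42 within the NCM arrays. PSMB10, a catalytic subunit of the immunoproteasome, had 0.69 late and 0.20 early, and late minus early was 0.49 (SE 0.18) with 0.95, 0.21 and 0.30 in the experiments and 0.26 without experiment 1. In the list of antigen presentation 7 of 14 genes were above 0 with a median of 0.05, and its lowest member was B2M, the light chain of MHC class I, at -0.19. Of these 14 genes 4 were higher and 0 lower in all 3 experiments, where 13.7% and 12% of all genes were. At an unadjusted p under 0.05 in limma, 3 were higher and 0 lower, where 3.2% and 3.25% of all genes were. The experiment medians were 0.19, 0.13 and 0.11. Among interferon-induced genes, 9 of 15 were above 0 with a median of 0.05, from WARS1, a tRNA synthetase gene, at 0.60 to MX1, an antiviral GTPase gene, at -0.43.

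Most NF-kappaB targets had late minus early values above 0. Of 17 measured, 14 were above 0, where 51.6% of all genes were. In all 3 experiments 5 were higher and 2 lower, where 13.7% and 12% of all genes were. The median was 0.13, with medians of 0.27 late and 0.14 early. Within the CM arrays alone the median late minus early level was -0.01, and within the NCM arrays it was -0.14. Over the alternatives the list median ran from 0.01 (neighbour centring) to 0.18 (without experiment 2), with 0.02 on the deposited scale and 0.04 without experiment 3. At an unadjusted p under 0.05 in limma, 1 was higher and 1 lower. The extremes of the list were CCL20 and NFKBIA, neither past the threshold. CCL20, a chemokine that attracts lymphocytes and dendritic cells, had 0.31 to 2.07 in the late pairs with a median of 0.82, and -1.06 to 1.00 in the early pairs with a median of 0.04. The 9 late pairs were above 0 and 5 of 9 early ones were, and 4 early values (1.00, 0.49 and 0.50 in experiment 1 and 0.69 in experiment 2) lay among the late ones. CCL20 had a late minus early value of 1.01 (SE 0.29, unadjusted p = 0.00240, limma adjusted p = 0.589), with 0.32, 1.88 and 0.82 in the experiments, and 0.57 without experiment 2. CXCL2, a neutrophil chemokine, reached 0.97 at 1 h and 0.69 at 3 h, so its peak spanned the border between the periods and late minus early was -0.15 (SE 0.18). NFKB1, an NF-kappaB subunit, had its highest means at 1 h (0.68) and 3 h (1.23) and a late minus early value of 0.35 (SE 0.20). TNFAIP3, a feedback inhibitor of NF-kappaB, had 0.16 (SE 0.24), and SOD2, the mitochondrial superoxide dismutase, had 0.14 on its brightest probe and 0.67 on the other.

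Receptors and signalling molecules gave 10 of 15 genes above 0 with a median of 0.13, from IL1RAP, the accessory chain of the interleukin-1 receptor, at 0.54 to TRAF6, an adaptor below that receptor, at -0.56. IL1R1, the receptor chain itself, had 0.18 on its brightest probe, while probe 8544 rose in the late mean (0.74, limma adjusted p = 0.0137, higher in 9 of 9 pairs, called in 8 of 19 alternatives) and had 0.60 for late minus early. The sixth probe past the threshold in the late mean, probe 4768, names no gene and had 0.73 late and 0.25 early. ABCA1, the cholesterol efflux pump, had 0.77 (SE 0.23), with all 9 late pairs above 0 and 0.21, 0.86 and 1.25 in the 3 experiments. IGFBP1, a liver protein that binds insulin-like growth factors, peaked at 3 h (1.38) after 1.02 at 1 h, and late minus early was 0.32 (SE 0.23).

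JUN, ATF3, EGR1 and MYC were among the immediate early genes with late minus early values below 0. JUN, a subunit of the AP-1 transcription factor, ran from -1.79 over a median of 0.00 to 0.61 in the late pairs and from 0.18 over 0.56 to 0.87 in the early pairs. Of the late pairs 5 of 9 were above 0 and of the early pairs 9 of 9, and the lowest late value came from experiment 1 at 6 h. Late minus early was -0.65 (SE 0.25, unadjusted p = 0.0186), with -1.30, -0.40 and -0.26 in the experiments, and -0.33 without experiment 1. ATF3, a stress-induced transcription factor, had -0.03 ± 0.29 late and 0.45 ± 0.65 early (SD, n = 9 pairs each), and its early mean was carried by 30 min (1.38, 1.18 and 0.32). Late minus early was -0.48 (SE 0.21), with -0.81, -0.57 and -0.07 in the experiments, and -0.32 without experiment 1. EGR1, a growth-response transcription factor, had -0.40 (SE 0.19), with -0.55, -0.44 and -0.21. MYC, a growth-promoting transcription factor, had late means of at most 0.24 and early means of 0.13, 0.18 and 0.92 in order of time, and late minus early was -0.28 (SE 0.22). Over the 21 measured genes of the list, 9 were above 0, 12 were below 0 and the median was -0.11. This median turned to 0.03 without experiment 1 and to 0.01 without experiment 2. The highest member was ZFP36 at 0.31 on its brightest probe, or -0.02 with its probes averaged. In all 3 experiments 3 were higher and 5 lower, where 13.7% and 12% of all genes were. The median of the late means (0.05) was above that of the early means (0.01), so the 2 summaries differ in sign. For the STAT3 pathway and targets, 8 of 20 were above 0 with a median of -0.08, again with a higher median late (0.12) than early (0.08), from CEBPB, a C/EBP factor, at 0.27 to the kinase JAK2 at -0.71.

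**Figure D2:**
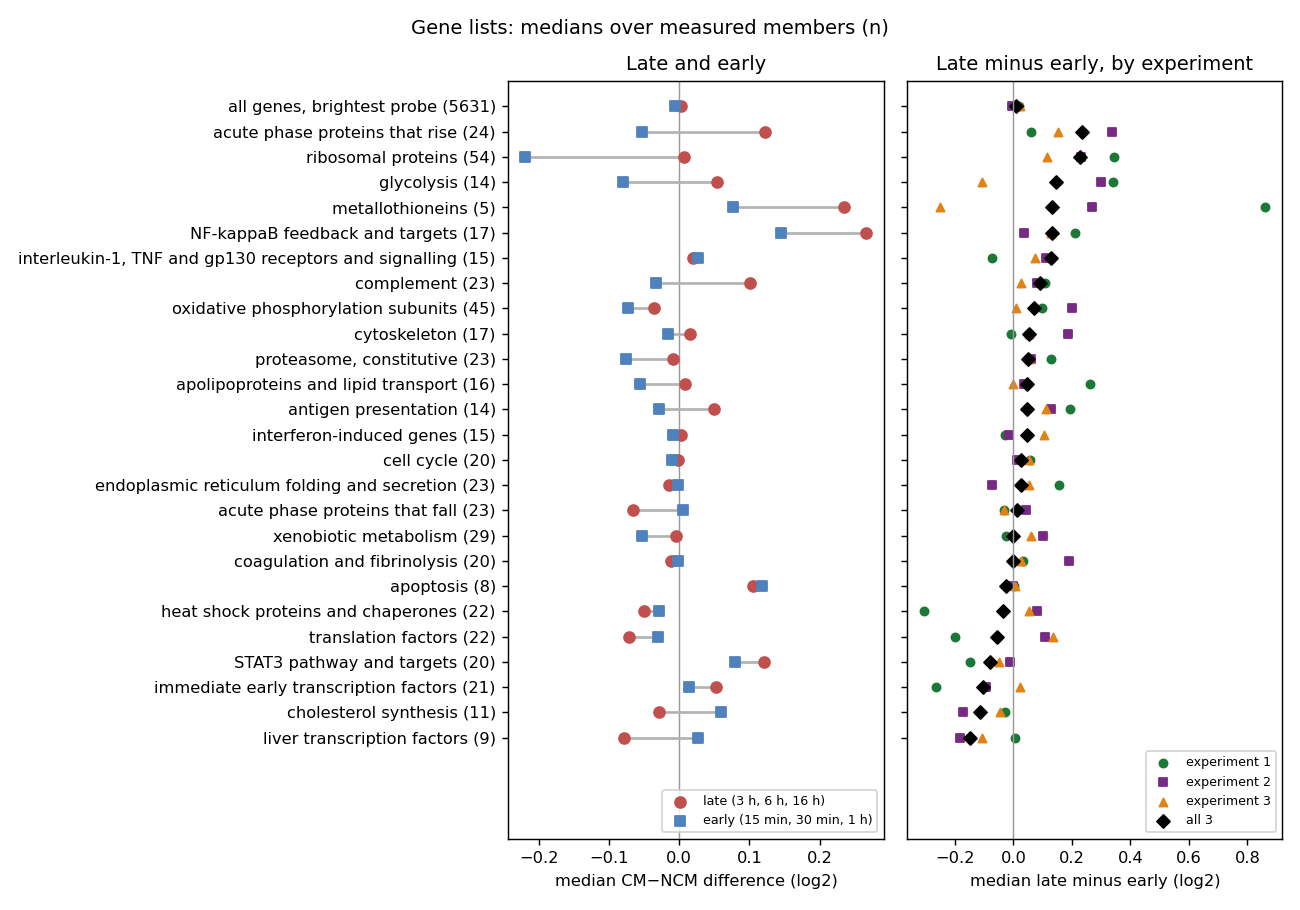
Medians of 25 gene lists and of all genes over measured members (number in brackets). The left panel gives the median CM minus NCM difference (log2) of the late and early means, and the right panel the median late minus early value (log2) in each experiment and over all 3; the acute phase list and the ribosomal proteins have the highest medians at 0.23, and the liver transcription factors the lowest at -0.15.

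Ribosomal protein genes had the same median as the acute phase list but a different pattern. Of 54 measured, 43 were above 0 (51.6% of all genes were). In all 3 experiments 24 were higher and 3 lower, where 13.7% and 12% of all genes were. The median was 0.23, with experiment medians of 0.34, 0.23 and 0.12. Within the CM arrays alone the median late minus early level was 0.03, and within the NCM arrays it was -0.18. The late median was 0.01 and the early one -0.22, so the value came from early pairs in which CM lay below NCM, while T0 already had -0.12. The medians at the 3 late times were 0.04, -0.11 and 0.13, and at the early times -0.17, -0.20 and -0.22. The range ran from RPS15 at 0.72 to RPS7 at -0.37. At an unadjusted p under 0.05 in limma, 7 members were higher and 0 lower, where 3.2% and 3.25% of all genes were. Glycolysis genes had 9 of 14 above 0 with a median of 0.15, from LDHA at 0.41 to LDHB, both lactate dehydrogenase subunits, at -0.30, but experiment 3 gave -0.11 against 0.34 and 0.30 in the other two. The 5 measured metallothioneins, which bind zinc and copper, were all above 0 with a median of 0.13, yet the experiment medians were 0.86, 0.27 and -0.25. Complement genes had 15 of 23 above 0 with a median of 0.09, from CFB to CD46, a complement regulator, at -0.39. Cholesterol synthesis (4 of 11 above 0, median -0.12) and the liver transcription factors (3 of 9, median -0.15) lay lowest. Oxidative phosphorylation subunits had 27 of 45 above 0 with a median of 0.07. Medians of cell cycle, cytoskeleton, lipid transport and proteasome genes lay between 0.03 and 0.05, and those of translation factors, chaperones and apoptosis genes between -0.06 and -0.03.

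Outside the lists, XPA, a DNA damage recognition factor, was among the highest. Of its late pairs 8 of 9 were above 0 (-0.43 to 1.33), and its 9 early pairs were all below 0 (-1.06 to -0.07), but the pairs of T0 had 0.10, 1.35 and 0.49. Late minus early was 1.02 (SE 0.23, limma adjusted p = 0.453). The others were RGN, a calcium-binding liver protein (0.79), WHR1 (0.75), TNC, the matrix protein tenascin-C (0.75), and SLC10A2, a bile acid transporter (0.70). On the lower side PPP4R1, a regulatory subunit of protein phosphatase 4, had -0.58 ± 0.49 late and 0.50 ± 0.53 early (SD, n = 9 pairs each), with 1 of 9 late pairs and 7 of 9 early pairs above 0. Its late minus early value was -1.07 (SE 0.26, limma adjusted p = 0.490), with -0.90, -1.50 and -0.81 in the experiments, and its mean at T0 was 0.53, close to the early one. LITAF, a factor induced by lipopolysaccharide, had -0.23 late and 0.53 early, with its highest mean at 15 min (0.84), and late minus early was -0.76 on its brightest probe and -0.14 on the other. The remaining 8 were SYT15, a synaptotagmin (-1.02), CREBL2 (-0.97) and ATF5 (-0.71), both leucine zipper factors, SLC38A6, an amino acid transporter (-0.77), LRMDA (-0.57), the corepressor RCOR3 (-0.56), SMAP2, a regulator of vesicle traffic (-0.54), and TRIM10 (-0.53). On their other probes SLC38A6 had 0.32, SYT15 -0.68 and LRMDA 0.09 and -0.44. Without experiment 1, LRMDA had -0.29 and ATF5 -0.40.

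**Figure D3:**
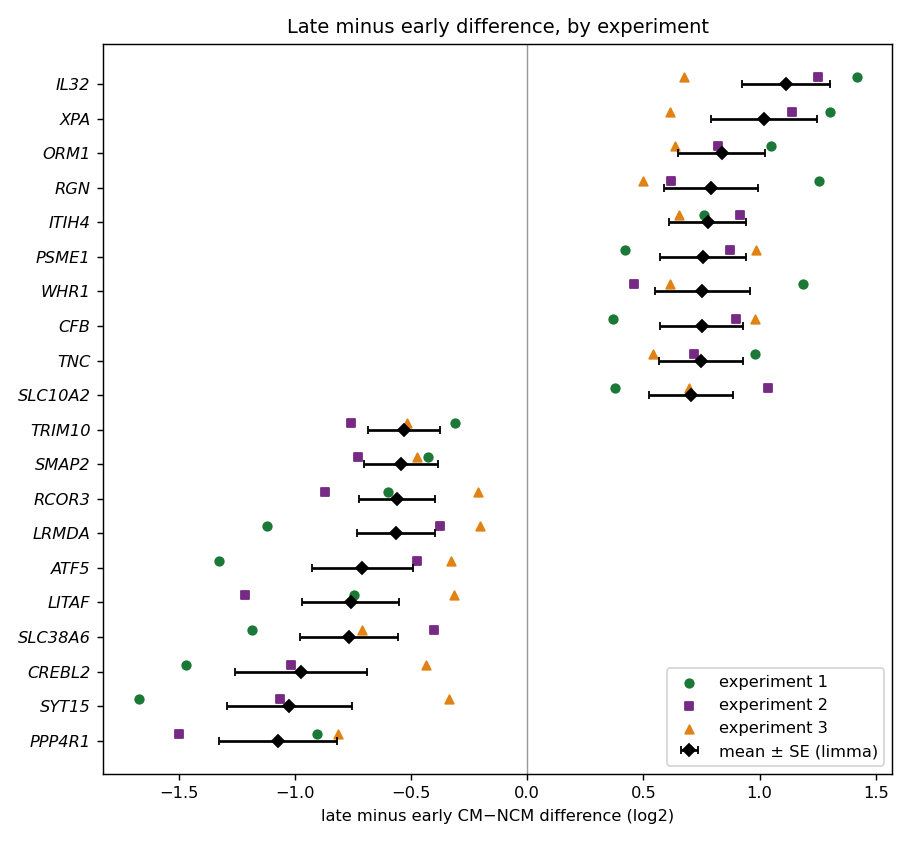
Late minus early CM minus NCM difference (log2, horizontal axis) of the 10 genes above 0 and the 10 below 0 with the smallest unadjusted p among those with 3 experiments in the same direction; coloured points are experiments and black diamonds the limma mean with its SE. IL32 has the highest mean at 1.11 and PPP4R1 the lowest at -1.07, and experiment 3 lies nearest to 0 for many of the genes on both sides.

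The 3 experiments shared little over all probes. Late minus early values of different experiments correlated at r = 0.02 (1 and 2), -0.04 (1 and 3) and 0.15 (2 and 3) across 13824 probes, which are not independent. Their SD over probes was 0.55, 0.47 and 0.32. Values above 1 numbered 473, 174 and 46 probes in experiments 1, 2 and 3, and values under -1 numbered 592, 303 and 76. The limma F test of a difference between experiments gave 0 calls (0%), an unadjusted p under 0.05 for 1342 probes and a smallest adjusted p of 0.225. This count depended on the scaling: it was 2402 after median centring, and on the deposited scale 0 with an unadjusted p under 0.05 for 4087 probes. Differences of single pairs correlated across probes on average at 0.04 among late pairs, 0.03 among early pairs and -0.002 between late and early pairs. Of the 59 measured genes among 78 listed for their known roles, 21 were higher in all 3 experiments and 7 lower, where 13.7% and 12% of all genes were, and their median was 0.13.

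The same contrast was taken within each medium to show which arrays carried a difference. Within CM the limma count was 0 (0%), with an unadjusted p under 0.05 for 419 probes, and within NCM it was 0 (0%), with such a p for 638. Both counts at the unadjusted p were under the 691.2 of chance alone. IL32 had a late minus early level of 0.46 (SE 0.35) in CM and -0.66 (SE 0.35) in NCM. ORM1 had 0.46 in CM and -0.37 in NCM, ITIH4 0.27 and -0.50, and PPP4R1 -0.30 and 0.77. For these genes the values in CM and NCM had opposite signs, so part of each value lay in the control arrays. CFB (0.50 in CM, -0.25 in NCM), PSME1 (0.60 and -0.16) and FGB (0.58 and -0.08) lay more in CM, while SLC10A2 (0.11 and -0.60) and PSMB10 (-0.09 and -0.58) lay in NCM. Probes 640 (0.13 and -0.42) and 4768 (-0.07 and -0.55), both past the threshold in the late mean, also lay more in NCM. ATF3 (-0.52 and -0.04) and EGR1 (-0.47 and -0.07) lay in CM. Of the genes with the smallest p within a medium, C8A and STAT5B had like values in both, while those of MRPS2, AHSA2P and SLC10A2 lay further apart. C8A, a chain of the membrane attack complex, had -1.15 (SE 0.32) in CM and -1.35 (SE 0.32) in NCM, with a late minus early difference of 0.20, and STAT5B, a signal transducer, had -0.72 and -0.76. MRPS2, a mitochondrial ribosome protein, had 0.62 in CM and 0.12 in NCM, and AHSA2P, a pseudogene, had -0.47 and -0.87.

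**Figure D4:**
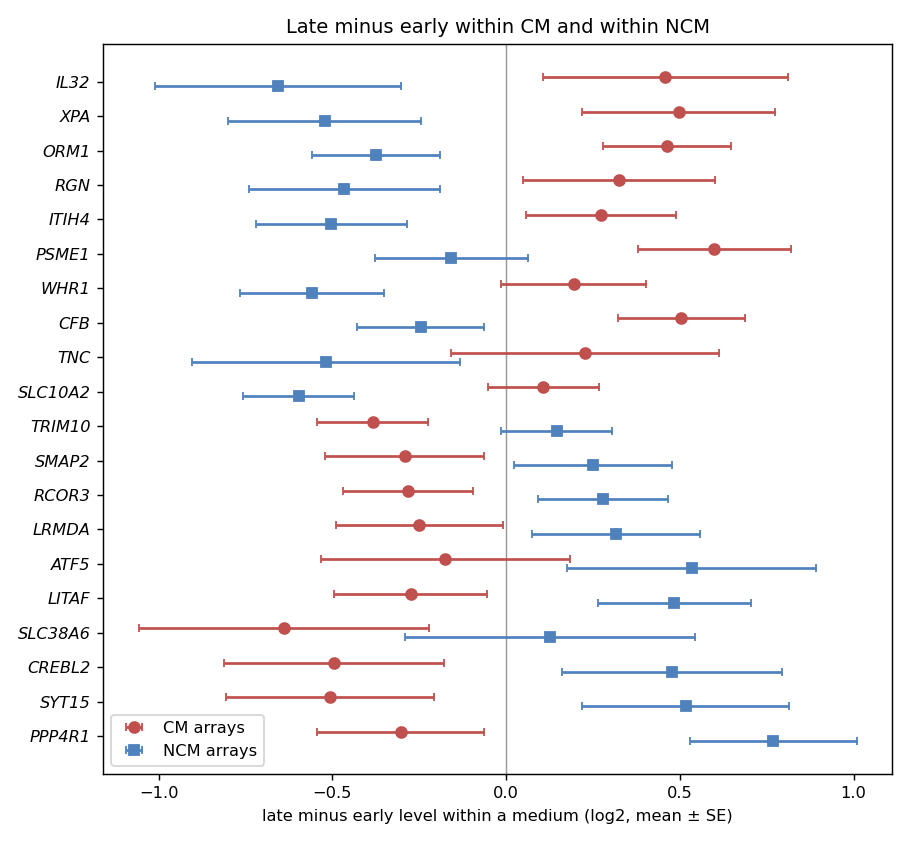
Late minus early level within CM and within NCM (log2, mean ± SE from limma, 9 late and 9 early arrays of each medium) for the 10 genes above 0 and the 10 below 0 with the smallest p for late minus early among those with 3 experiments in the same direction. IL32 is at 0.46 in CM and -0.66 in NCM, and PPP4R1 at -0.30 and 0.77; the SEs are about as large as many of the values.

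Position among the probe numbers moved with these values. In runs of 384 consecutive numbers, the last 4 runs (probes 12289 to 13824) held 30, 39, 29 and 43 probes higher late at an unadjusted p under 0.05 against 3, 6, 2 and 6 lower, and 314, 306, 318 and 333 of their probes name no gene. The run from probe 11521 to 11904 held 26 higher and 8 lower, and in it lie CCL20, ITIH4, XPA, SLC10A2 and WHR1. Neighbour centring laid the probe numbers out on an assumed grid and subtracted the mean deviation of the adjacent spots. With it, these 5 had 0.66, 0.80, 0.75, 0.55 and 0.65, and IL32 had 0.92. Over all probes the late minus early value correlated at 0.38 with the mean of its neighbours on this assumed grid. The part of position in the results was not tested.

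**Figure D5:**
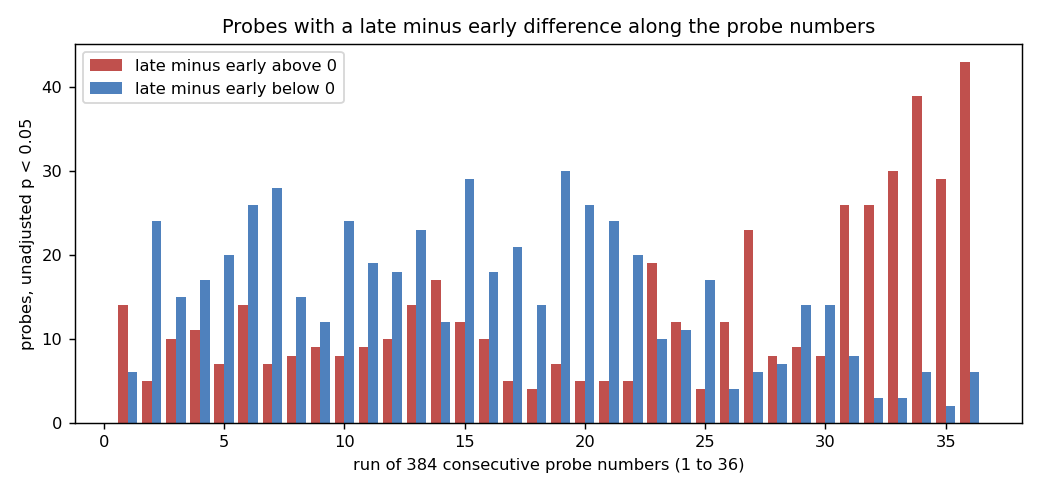
Number of probes at an unadjusted p under 0.05 for late minus early (vertical axis), above 0 in red and below 0 in blue, in 36 runs of 384 consecutive probe numbers (horizontal axis). Lower values prevail in runs 2 to 13 and 15 to 22, and the last 4 runs hold 29 to 43 higher and 2 to 6 lower probes.

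Of 13 measured hepatocyte or hepatoma markers, 12 had a mean signal above that of the median probe, as had 4 of 5 monocyte or macrophage, 3 of 5 blood, 2 of 6 fibroblast, 1 of 4 T or B cell and 0 of 4 endothelial markers. Signals of different probes do not compare the levels of genes, so these counts describe the arrays and do not settle the cell type. The summed intensity of the monocyte markers ran from 2.82 to 3.67 in late and 2.30 to 4.01 in early CM arrays, and from 2.44 to 3.38 in late and 2.44 to 3.79 in early NCM arrays, so the ranges overlapped. All 5 measured monocyte markers, of 10 listed, had late minus early values above 0, where 51.6% of all genes were, as had 4 of 5 blood markers. The monocyte values ran from CSF1R at 0.02 to LAPTM5, a lysosomal membrane protein of blood cells, at 0.37 (SE 0.17, limma unadjusted p = 0.0375). LAPTM5 was not among the 6 probes past the threshold in the late mean. Among the alternatives it passed there only with array weights (limma adjusted p = 0.0205) and with neighbour centring (0.0248). The part of these markers in the results was not tested. The deposited arrays had mean intensities between 0.999 and 1.00 and medians between 0.354 and 0.807. How precise each value is depends on how many arrays there are. Pairs of 1 experiment number may share material across times, which the labels do not settle, and the p-values treat all pairs as independent. The limma p-values of late minus early and of the period means rest on the spread among the 3 pairs of a time, T0 included. The SDs over 9 pairs also hold differences between the times, so they are not the spread used in these tests.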

How the data were processed

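The deposited values are linear intensities with a mean near 1 on every array; the sources used here do not name array type, background step or scaling, and up to 2.12% of an array's values are negative. Arrays were quantile normalized on the linear scale, floored at the common 1st percentile (0.0812) and taken to log2. Pair differences of all 21 pairs entered limma 3.58.1 (R 4.3.3) with 1 mean per time, 14 residual degrees of freedom and Benjamini-Hochberg adjustment over 13824 probes at 0.05. Levels within a medium used all 42 arrays. Pairs come from the labels; both arrays of a pair deviated together from their groups (r of 0.308 to 0.754, above 0.1 in 21 of 21). Gene names came from the array annotation, with 7322 of 7336 matched to RefSeq genes (GRCh38.p14, names only). Named genes were the 10 above 0 and 10 below 0 with the smallest p and 3 experiments in 1 direction, those past the threshold in a period, the 3 smallest p within a medium, 78 fixed genes and list extremes; second, several-gene and unnamed probes and other list members were picked after their values were seen. Genes, lists and tests were all chosen with earlier results of these data known. Fits were tested on simulated data. Alternatives covered the block, normalization, floor, dim probes, array weights, neighbour centring, left-out replicates and times. Plots used matplotlib 3.10.9.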

Additional observations from a re-analysis of the deposited data

Results flagged for a closer look

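In a group of 9 pairs, 1 pair stood far from the other 8 in 20 of 158 groups checked, where chance gives about 7.9. Among the late pairs these were JUNB at 2.34 (16 h, experiment 3), PSMB10 at 1.96 (6 h, experiment 1), CCL2, a monocyte chemokine, at 1.58 (3 h, experiment 1), TNFAIP3 at 1.40 (16 h, experiment 1), C1S at 1.09 (3 h, experiment 3), KLF6 at 0.94 (16 h, experiment 2) and ALB at 0.41 (3 h, experiment 2). On the low side were LRMDA at -1.04 (16 h, experiment 1), FGA at -0.74 (3 h, experiment 1), ATF3 at -0.72 (16 h, experiment 2) and ZFP36 at -0.55 (6 h, experiment 3). Among the early pairs the high ones were SLC38A6 at 1.83 (1 h, experiment 1), CXCL8 at 1.37 (1 h, experiment 2), TAP1 at 0.98 (1 h, experiment 1) and PSME1 at 0.91 (15 min, experiment 1). The low ones were SOCS3, a feedback inhibitor of STAT3 signalling, at -2.43 (15 min, experiment 1), SERPING1 at -1.71 (15 min, experiment 1), IL1R1 at -1.53 (30 min, experiment 2), GADD45B at -1.32 (30 min, experiment 1) and ALB at -0.70 (30 min, experiment 2).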

How the results depend on the processing

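The late minus early count of 0 became 1 with 1 mean per period, 1 without the dimmest 50% of probes and 1 with the probes of each gene averaged, each time IL32 (adjusted p = 0.0352, 0.0438 and 0.0361, in a range of 0.0352 to 1.00 over 25 alternatives). With array weights it was 3, IL32, RPS16 probe 10019 and AKNA;ORM2 probe 7313. The late count of 6 was 0 without the pairs as a block and 0 with 1 value per experiment. It was 1 on the deposited scale, 1 after median centring, 1 with an intensity trend and robust spread and 14 with array weights. Leaving out 1 time gave 6 without 3 h, 0 without 6 h and 3 without 16 h, and leaving out 1 replicate gave 0 each time. The early count was 6 with array weights, among them NFKBIA and CXCL2. Without 1 h, 1 probe was called within CM and 1 within NCM, both probe 10003 of STAT5A (-2.09 and -2.32), singled out after its values were seen. The F test between experiments called 2402 probes with median centring and 2 with neighbour centring. The size difference turned to 0.000758 with neighbour centring (exact permutation p = 0.97825). With the experiment number as a replicate block the counts were 0 for late minus early and 3 for the late mean; across times, pair deviations of 1 experiment number correlated at -0.233 to 0.272, over 0.1 in 10 of 45 comparisons, and those of different numbers at -0.262 to 0.232, over 0.1 in 15 of 90, so whether the number pairs the times was not settled. The causes were not tested. Of the 78 named genes, 32 had an unadjusted p under 0.05 in limma, and 32 of these kept their sign in every alternative run. They were picked by their p in the same pairs that the alternatives reuse, so kept signs are no separate support. For genes with 3 experiments in 1 direction, leaving out 1 experiment could not turn the sign. The acute phase median stayed between 0.13 and 0.32 and the ribosomal one between 0.15 and 0.31. Leaving out 1 experiment moved 9 of these 32 by over 1.5 times: without experiment 1 LRMDA, ATF5, ATF3, JUN and PSMB10, and without experiment 2 CCL20, FGG, HP and ITIH3, each to a value nearer 0. The number of arrays and the dimness of many probes limit all of these values.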
